A study of Mus musculus with 12 samples.

Results

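Among genes of cultured mouse cardiomyocytes with a deposited RNA-seq value, 79 were listed only in the line with inducible Hey1. They had a value in both Hey1-line libraries and a blank in both libraries of the Hey2 line. The members were chosen by these values and blanks alone. Of 81 rows with this listing, Slc16a8 and Kcnf1 were left out for the start of their names, and names starting Mir or Snor were to be left out as well. The table held 23427 genes, of which 15371 had a value in some library and 11917 in both Hey1-line libraries, so the 79 made up 0.663% of the latter. The opposite listing, values in both Hey2-line libraries and blanks in both Hey1-line libraries, held 1845 genes. Listing began at 10 reads in the Hey1 line and at 5 reads in the Hey2 line. A gene at the same level in both lines could thus be listed only in the Hey2 line. The counts are therefore not on a like footing.

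The cells came from CM7/1, a murine embryonic stem cell line, and were differentiated to cardiomyocytes in vitro. One version of the line overexpressed Hey1 and the other Hey2 when doxycycline was given. The 4 RNA libraries were the Hey1 line without doxycycline, the Hey1 line with 1000 ng/ml for 48 h, and the Hey2 line under the same conditions, 1 library each. Nothing in the labels names the promoter, the number of clones or the purity of the cultures. No library came from treated cells without an inducible gene, so the drug and Hey1 cannot be told apart. Hey1 itself stood at 0.735 RPKM without and 8.59 RPKM with doxycycline in the Hey1 line, 11.7-fold higher (95% counting interval 6.48 to 23.1). An RPKM is a read count divided by the gene's length in kilobases and by library depth.

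Hey1 and Hey2 are basic helix-loop-helix repressors that act downstream of Notch. In the developing heart they help to set the border between chamber and atrioventricular canal muscle. They bind DNA at E-box-like sites, and both recruit corepressors. Maturing cardiomyocytes switch on muscle isoforms of proteins that other cells make in another form, such as respiratory chain subunits, myosin light chains and creatine kinases.

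The table holds no zeros, so a blank can stand for any count from 0 up to the listing floor. Whether reads of overlapping genes were dropped from a blank is not stated. Whole reads were recovered from the steps of the RPKM, and values started at 10 reads in the Hey1 line and at 5 reads in the Hey2 line. The reads and length given for a gene are the fewest and shortest that fit its values and the floor. True ones may be whole multiples of these. The libraries differed in depth, with divisors of 7400000 and 7500000 reads for uninduced and induced Hey1-line cells, and 5750000 and 10375000 reads for those of the Hey2 line. The floors and depths by themselves therefore set a least difference between the lines of 1.55-fold without and 2.77-fold with doxycycline for any member. Between the lines the whole culture differed too. The summed RPKM of 63 sarcomere genes was 34959 and 35745 in Hey1-line cells against 2271 and 2371 in Hey2-line cells, and that of 27 pluripotency genes 71.3 and 58.0 against 519 and 517. Fewer cells of a type and less RNA per cell cannot be told apart in such bulk samples, and line, culture and library cannot be told apart either. There were no replicates, so every interval below covers counting error only and compares libraries, not conditions.

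By the fewest reads that fit, most members lay close to the floor. Their RPKM ran from 0.223 to 64.0 in uninduced cells (median 1.54) and from 0.169 to 57.7 in induced cells (median 1.82). They had a median of 18 reads in each Hey1-line library, against 105 and 98 for all genes listed in both. A mean of at least 1 RPKM was reached by 58 members, of at least 5 RPKM by 14 and of at least 10 RPKM by 5. The 12 highest members took 59.0% of the members' summed RPKM, and Cox8b alone 20.9%. The shortest gene model length that fits the values had a median of 1678 bases for members. For all genes listed in both Hey1-line libraries it was 2983 bases. Members have values in the Hey1-line libraries only, so fewer values constrain their lengths. This comparison therefore cannot show that members are shorter. Protein-coding genes made up 86.1% of the members and 95.9% of that background. Among genes with at most 50 reads in each Hey1-line library the shares were closer, at 85.5% of members and 91.3% of all genes.

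Just inside the threshold lay Rgag4 at 10 and 14 reads (uninduced, then induced), D830046C22Rik at 10 and 17, and the antisense gene OTTMUSG00000016300 at 10 and 11. Just outside it, Gdf15, a stress-responsive growth factor of the TGF-beta family, had 43 and 38 reads in the Hey1 line, a blank in uninduced and 5 reads in induced Hey2-line cells. Cbx8, a Polycomb subunit, had 27 and 33 reads with 5 in the induced Hey2-line library. 1700018L02Rik had 18 and 38 reads with 5 in the uninduced Hey2-line library. If these fewest reads are the true ones, a single read would move such genes across the border.

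By known function, 18 members belonged to heart or muscle, 11 to liver and blood plasma and 8 to the histone clusters. Another 10 were long non-coding RNAs and 32 had other or unknown roles. These classes were made from the symbols after the table had been read.

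**Figure D1:**
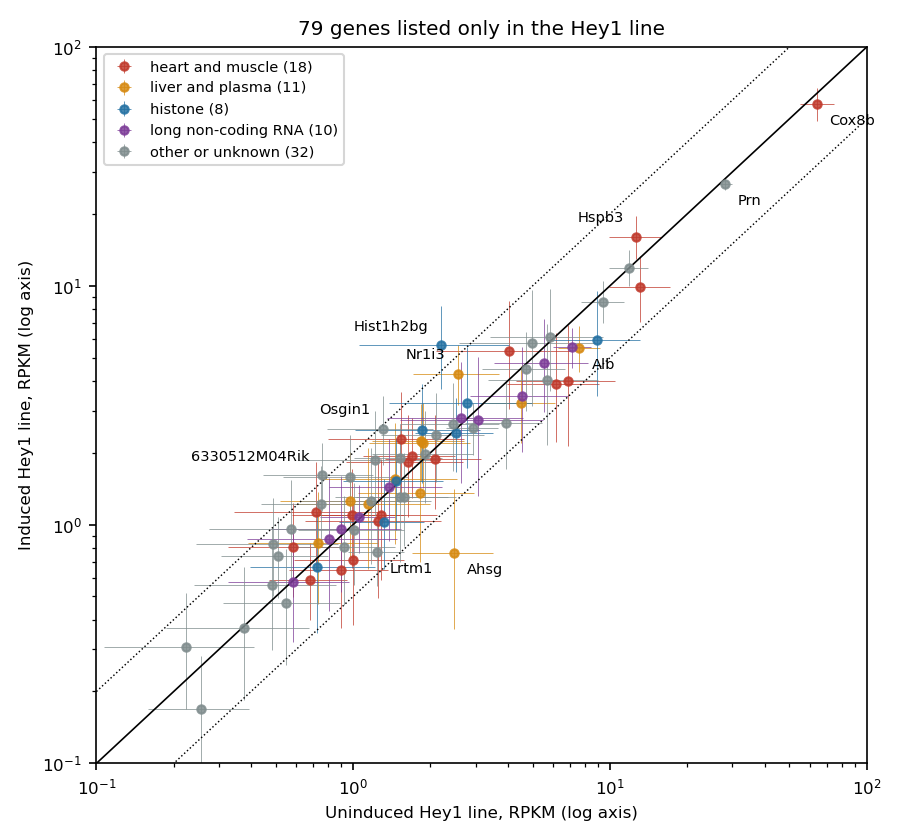
RPKM of the 79 members in uninduced (x axis) and induced (y axis) Hey1-line cells, both on log axes, coloured by function class, with bars for the 95% counting interval of each library. The solid line is equality and the dotted lines 2-fold. Hist1h2bg and 6330512M04Rik lie above the upper dotted line and Ahsg below the lower one.

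The heart and muscle members were led by Cox8b, the heart and muscle isoform of a cytochrome c oxidase subunit. Cox8b had 64.0 RPKM in uninduced and 57.7 RPKM in induced Hey1-line cells, from 172 and 157 reads. It was at least 26.7-fold above the Hey2-line floor without and at least 43.4-fold with doxycycline. The ubiquitous isoform Cox8a was listed in all 4 libraries, at 230 and 233 RPKM in the Hey1 line and 62.5 and 71.8 RPKM in the Hey2 line.

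Hspb3, a small heat shock protein of muscle, had 12.6 and 16.0 RPKM from 73 and 94 reads. Myl1, the fast skeletal muscle myosin alkali light chain, had 13.1 and 9.85 RPKM. Both were low beside their cardiac relatives: the atrial light chain gene Myl4 stood at 4940 and 4861 RPKM, and Hspb7 at 337 and 338 RPKM, in the same libraries. Those relatives did have values in the Hey2 line, 138 and 140 RPKM for Myl4 and 17.7 and 18.4 RPKM for Hspb7.

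Other contractile and muscle stress genes were lower in level. Lmcd1, a LIM and cysteine-rich domain protein that restrains GATA6, had 6.88 and 4.01 RPKM. Tmem182, a membrane protein of muscle, had 6.16 and 3.89 RPKM. Ankrd2, a stretch-responsive titin-binding protein of skeletal muscle, had 4.05 and 5.33 RPKM, while its cardiac relative Ankrd1 had 1231 and 1071 RPKM. Myoz1, the calcineurin-binding Z-disc protein of fast fibres, had 1.25 and 1.03 RPKM, whereas the cardiac form Myoz2 had 108 and 93.9 RPKM. Capn3, the muscle calpain, had 0.581 and 0.803 RPKM, and it overlaps the non-coding gene 4931402G19Rik, which was listed in all 4 libraries. In each of the pairs Myl1 and Myl4, Ankrd2 and Ankrd1, and Myoz1 and Myoz2 the member was the skeletal form and the lower one.

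Ckmt2, the mitochondrial creatine kinase of sarcomeric muscle, had 2.09 and 1.88 RPKM. Asb18, Asb5 and Asb10, ankyrin repeat and SOCS box proteins, had 1.54 and 2.28, 1.28 and 1.10, and 0.991 and 1.09 RPKM. Hhatl, an acyltransferase-like membrane protein abundant in heart, had 1.69 and 1.94 RPKM. Colq, the collagen tail that anchors acetylcholinesterase at the neuromuscular junction, had 0.715 and 1.13 RPKM.

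The class also held signalling and excitability genes of the heart. Bmp10, a growth factor of trabecular myocardium, had 1.64 and 1.82 RPKM. Gata5, a cardiac and endodermal transcription factor, had 0.900 and 0.646 RPKM, far below Gata4 (49.2 and 50.4 RPKM) and Gata6 (27.4 and 28.8 RPKM). Scn10a, a voltage-gated sodium channel gene, had 0.676 and 0.588 RPKM. P2rx1, an ATP-gated cation channel, had 0.996 and 0.710 RPKM. Gata4 and Gata6 both had values in the Hey2 line, between 7.27 and 9.69 RPKM.

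None of these 18 genes had a counting interval off 1 between induced and uninduced Hey1-line cells. The intervals rest on the fewest reads that fit the values, and more reads would narrow them. In the class 8 were higher and 10 lower after induction, 0 differed by 2-fold, and 0 had a counting interval off 1. Over all genes 39.0% were higher, 0.26% were at least 2-fold higher and 0.923% at least 2-fold lower. An interval lay above 1 for 4.66% of all genes and below 1 for 12.7%, at more reads per gene. With 18 genes, the counts of 0 do not set the class apart. The median log2 ratio was −0.15, with ratios from 0.583 for Lmcd1 to 1.58 for Colq. Cox8b, with the most reads of the class, was 1.11-fold lower (0.889 to 1.39), and Hspb3 was 1.27-fold higher (0.926 to 1.75). Lmcd1 was 1.72-fold lower (0.827 to 3.71), and Myl1 1.33-fold lower (0.873 to 2.05). These intervals hold both no change and, apart from those of Cox8b and Hspb3, a 2-fold one.

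In the list of sarcomere and myofibril genes, which holds Myl1, Ankrd2 and Myoz1, 56 of 63 genes in the table were listed in all 4 libraries and 3 only in the Hey1 line. Over the whole table of 23427 genes, 11692 were listed in all 4 libraries and 79 were members. Those 56 sarcomere genes stood at a median 11.4-fold higher in uninduced Hey1-line than Hey2-line cells. The median ratio of all genes listed in all 4 libraries was 0.852. Of 57 genes of the list with recovered reads in both Hey1-line libraries, 32 were higher and 25 lower after induction, with a median log2 ratio of 0.03 and 0 past 2-fold, where 39.0% of all genes were higher. The counting interval lay above 1 for 21 of the 57 and below 1 for 14, beside 4.66% and 12.7% of all genes. More reads give narrower intervals, so these shares cannot be compared as sizes of response. The interval of Myl4, at 4940 and 4861 RPKM, lay below 1 at a ratio of 0.984 (0.969 to 0.999). That of Ldb3 lay above 1 at a ratio of 1.04 (1.001 to 1.08). In the skeletal muscle list 1 of 40 was a member (Asb5) and 14 had no value in any library. The calcium and excitability list gave 2 of 48 (P2rx1 and Scn10a), the metabolic list 2 of 52 (Cox8b and Ckmt2), the cardiac transcription factor list 1 of 38 (Gata5) and the list of hormones and secreted factors 2 of 53 (Agt and Bmp10). The smooth muscle, endothelial, blood, neuronal, epicardial, epithelial, pluripotency, Notch, ciliary and G protein-coupled receptor lists held 0 members.

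**Figure D2:**
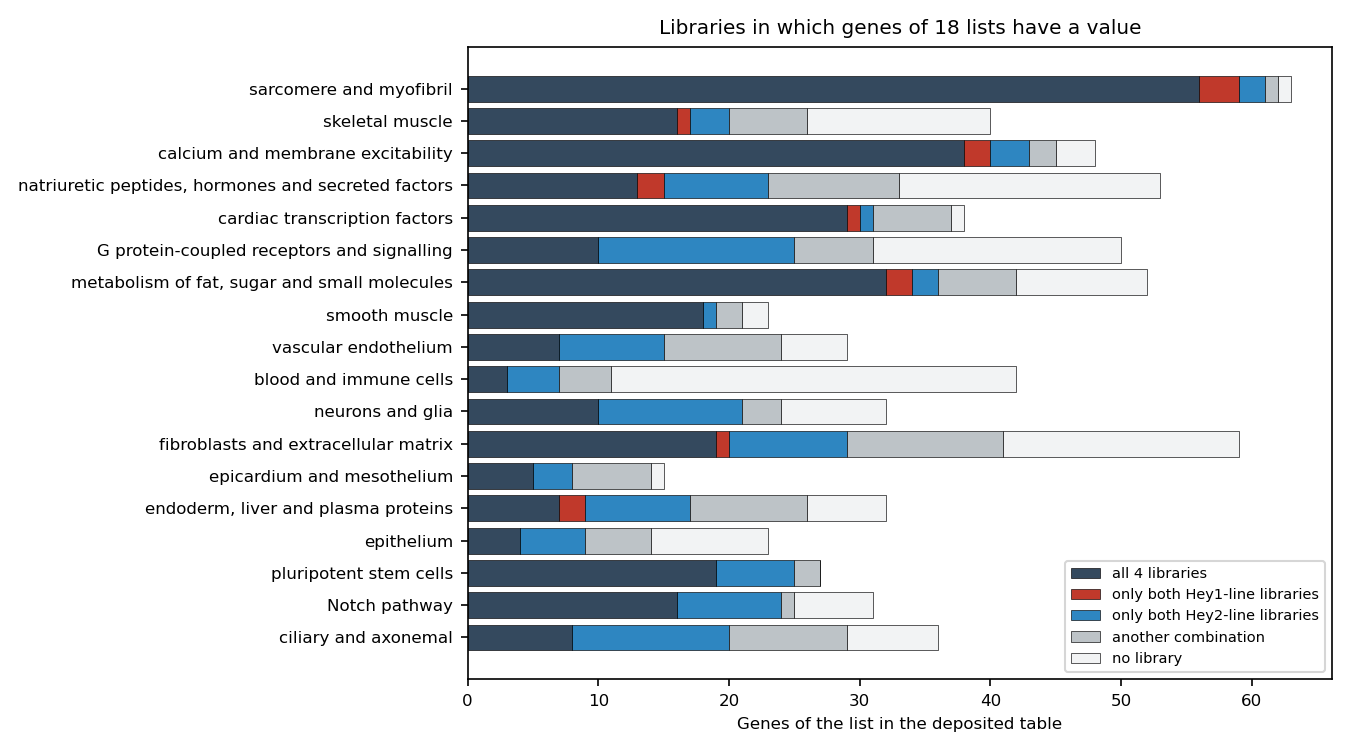
Number of genes in each of 18 lists (x axis) by the libraries in which they have a value. The red segments, genes listed only in both Hey1-line libraries, number at most 3 in a list, and the sarcomere list is mostly listed in all 4 libraries.

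The sequence upstream of 3 heart and muscle members is shown because these lead the class in level. That of the nuclear receptor gene Nr1i3 is shown because it holds a site of the kind that Hey proteins bind. Nr1i3 was 1 of 6 members with CACGTG and the only one of them with an induction interval off 1. Myl1 also holds a Hey-type site. Each is the 250 bases before the annotated start in RefSeq on GRCm38.p6, a later build than that of the deposited values, written 5′ to 3′ on the gene's strand. Capitals mark matches, on either strand, to one of 5 motifs. These are the E-box CACGTG, the Hey-type site written CACGCG, the muscle E-box written CAGCTG, the TEAD factor site written CATTCC, and the TATA motif written TATAAA. The windows are chr7:140900447-140900696 (minus strand) for Cox8b, chr13:113663677-113663926 (minus) for Hspb3, chr1:66945057-66945306 (minus) for Myl1 and chr1:171213720-171213969 (plus) for Nr1i3.
Cox8b: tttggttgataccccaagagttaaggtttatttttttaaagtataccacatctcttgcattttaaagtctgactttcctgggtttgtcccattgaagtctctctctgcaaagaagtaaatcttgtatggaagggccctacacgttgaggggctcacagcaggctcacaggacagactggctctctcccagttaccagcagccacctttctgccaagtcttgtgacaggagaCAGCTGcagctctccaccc
Hspb3: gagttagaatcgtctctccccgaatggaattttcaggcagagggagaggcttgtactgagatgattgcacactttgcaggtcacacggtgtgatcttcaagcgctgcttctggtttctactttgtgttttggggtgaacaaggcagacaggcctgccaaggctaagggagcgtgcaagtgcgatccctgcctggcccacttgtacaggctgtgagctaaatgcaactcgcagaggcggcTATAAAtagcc
Myl1: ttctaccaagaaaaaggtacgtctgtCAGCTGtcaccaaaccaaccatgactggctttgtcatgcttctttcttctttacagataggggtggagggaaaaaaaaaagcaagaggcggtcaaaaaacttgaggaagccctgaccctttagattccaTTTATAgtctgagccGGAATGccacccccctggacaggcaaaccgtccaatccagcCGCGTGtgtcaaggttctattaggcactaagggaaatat
Nr1i3: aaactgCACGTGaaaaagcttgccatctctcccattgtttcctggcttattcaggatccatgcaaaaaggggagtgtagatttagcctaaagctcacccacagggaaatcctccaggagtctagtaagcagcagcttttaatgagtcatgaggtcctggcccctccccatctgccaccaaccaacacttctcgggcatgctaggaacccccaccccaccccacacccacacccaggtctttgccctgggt

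A promoter entry was found for 63 of the 79 members. The E-box CACGTG was present in 6 of them (9.52%) and in 6.05% of 27025 promoters of the same length, and CACGCG in 3 (4.76%) and 7.74%. The 6 members with CACGTG were Nr1i3, Gata5, Nr0b2, 0610009L18Rik, Gm44504 and Smim27, of which 5 were higher and 1 lower after induction, beside 42 of 79 members higher and 39.0% of all genes. Among these 6 only Nr1i3 had an interval off 1, and the ratio of Gm44504 was 1.00. The 3 with CACGCG were Myl1, Lmcd1 and Chac1, all lower (Chac1 by 1.09-fold, Lmcd1 by 1.72-fold), with intervals that hold 1. CAGCTG, the site favoured by muscle helix-loop-helix factors, was present in 16 members (25.4%, against 12.8% of all), 7 of them among the 16 heart and muscle members with an entry. Of those 16 with CAGCTG, 5 were higher and 11 lower after induction. TATAAA was present in 18 (28.6%, against 13.0%), of which 10 were higher and 8 lower. These 18 included the histone cluster genes Hist1h1d, Hist1h1e, Hist1h2bg and Hist1h4i. The 27025 promoters were not limited to genes with a value in the Hey1 line. CATTCC was present in 7 (11.1%, against 12.6%), of which 3 were higher and 4 lower. Matches to different motifs may share bases, and a match is a description of the window only.

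The liver and plasma members contained the largest difference with induction. Ahsg, the plasma glycoprotein fetuin-A, had 2.47 RPKM in uninduced and 0.763 RPKM in induced Hey1-line cells, from 32 and 10 reads. It was 3.24-fold lower (1.56 to 7.40). At the fewest reads that fit, its induced value lies on the listing floor, and 1 read fewer would have left it out of the set. Alb, serum albumin, had 7.61 and 5.48 RPKM from 115 and 84 reads and was 1.39-fold lower (1.04 to 1.86). The interval of Alb held 1 under both other scalings of the libraries, at ratios of 0.759 and 0.753. Ambp, the precursor of alpha-1-microglobulin and bikunin, had 4.49 and 3.24 RPKM, 1.39-fold lower (0.844 to 2.30). Hpx, the haem-binding plasma protein hemopexin, had 1.83 and 1.35 RPKM, 1.35-fold lower (0.600 to 3.13).

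The other 7 of the 11 genes of the class were higher after induction, where 39.0% of all genes were higher. Nr1i3, the xenobiotic receptor CAR, had 2.56 and 4.28 RPKM from 29 and 49 reads and was 1.67-fold higher (1.03 to 2.74). Nr1i3 overlaps Tomm40l, which had 9.86 and 12.6 RPKM. Agt, angiotensinogen, had 1.84 and 2.25 RPKM, and Igfbp1, a liver-secreted binding protein of insulin-like growth factors, 1.87 and 2.19 RPKM. Nr0b2, the repressor SHP of bile acid synthesis, had 1.45 and 1.55 RPKM, and Hsd3b6, a steroid dehydrogenase, 0.975 and 1.26 RPKM. Tm6sf2, which acts in lipoprotein secretion, had 1.14 and 1.22 RPKM, and Proz, the vitamin K-dependent protein Z, 0.733 and 0.834 RPKM. The intervals of these 6 genes other than Nr1i3 held 1.

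Secreted plasma proteins thus stood on both sides, with Alb, Ahsg, Ambp and Hpx lower and Agt, Igfbp1 and Proz higher, and only the intervals of Alb and Ahsg lay off 1. In the list of endoderm, liver and plasma protein genes, 7 of 32 in the table were listed in all 4 libraries, 2 were members (Alb and Ahsg) and 8 were listed only in both Hey2-line libraries. Over the whole table of 23427 genes, 79 were members and 1845 were listed only in both Hey2-line libraries, where the floor was lower. The summed RPKM of the list was 136 and 116 in Hey1-line cells, and 162 and 180 in Hey2-line cells. A few genes led the Hey2-line sum, namely Apoe (64.9 and 82.7 RPKM), Cldn6 (50.0 and 48.6) and Tdh (18.2 and 18.8). The sum therefore does not describe the list gene by gene. Of the 7 genes listed in all 4 libraries, 4 were higher in uninduced Hey1-line than Hey2-line cells. Trf had 17.4 and 15.8 RPKM in the Hey1 line, and a blank and 0.289 RPKM in the Hey2 line. Afp, the fetal relative of albumin, had 58.5 and 42.0 RPKM in the Hey1 line and 1.42 and 0.970 RPKM in the Hey2 line. After Hey1 induction Afp was lower, at a ratio of 0.718 (0.648 to 0.795), close to that of Alb (0.721). Of 10 genes of the list with reads in both Hey1-line libraries, 9 were lower and 1, Apoe, higher, with a median log2 ratio of −0.45 beside −0.07 for all genes. The liver factor gene Hnf4a and Apob had values only in the Hey2 line, and Apoa1, Apoc2, F10, Fgg, Serpina1a and Serpina6 had none in any library. The part of endoderm-like cells in these values was not tested.

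**Figure D3:**
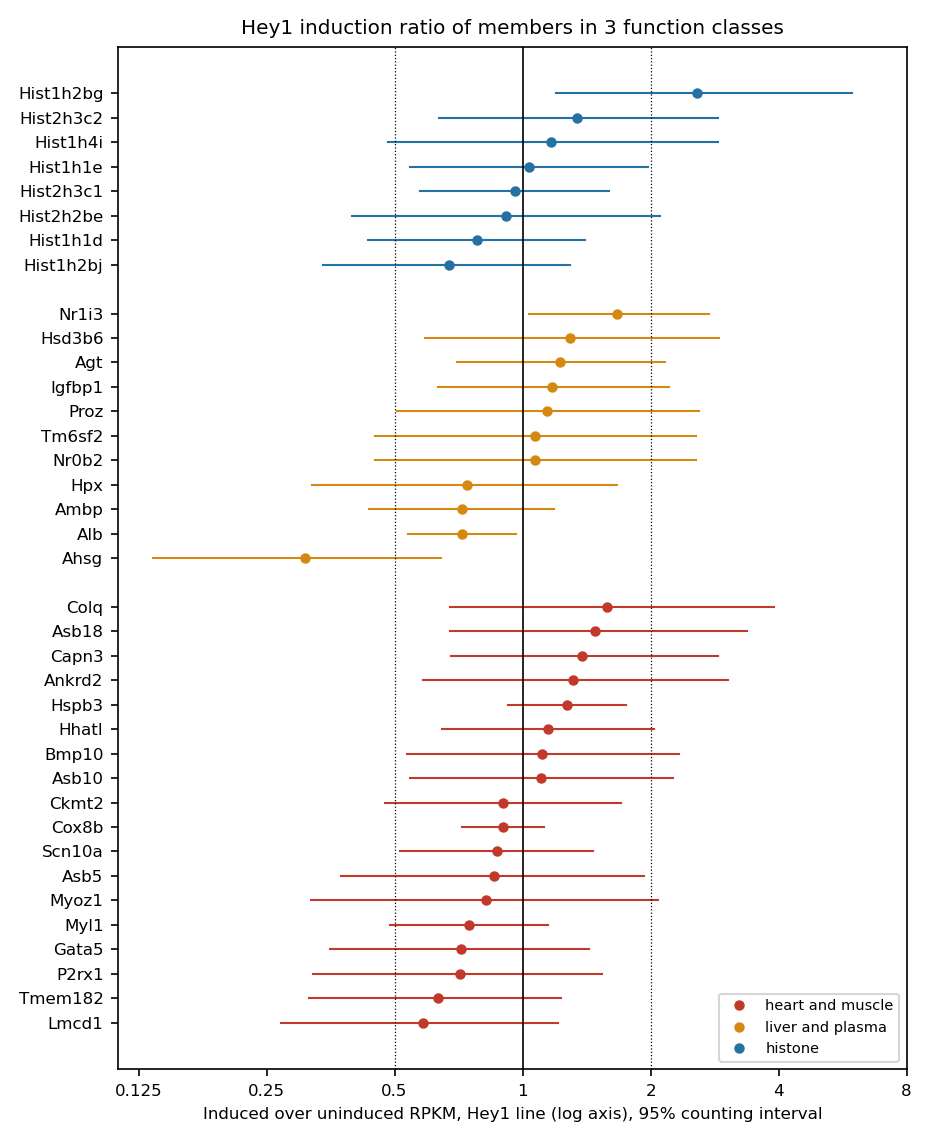
Induced over uninduced RPKM in the Hey1 line (x axis, log) for the 8 histone, 11 liver and plasma and 18 heart and muscle members, with 95% counting intervals. The solid line is a ratio of 1 and the dotted lines 2-fold. The interval lies off 1 for Hist1h2bg, Nr1i3, Alb and Ahsg.

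Histone cluster genes made up 8 of the members. They were Hist1h2bj, Hist1h2bg, Hist1h4i, Hist2h3c1, Hist2h3c2, Hist1h1e, Hist1h1d and Hist2h2be, which encode core and linker histones. Most such transcripts end in a stem-loop in place of a poly(A) tail, and the labels do not say whether poly(A) RNA was selected. Of 62 histone cluster genes in the table, 17 and 23 had a value in uninduced and induced Hey1-line cells, against 5 and 12 in the Hey2 line, and 0 were listed only in both Hey2-line libraries. The 5 listed in all 4 libraries were all higher in the Hey1 line, with and without doxycycline. Hist1h1c had 50.2 and 41.9 RPKM in Hey1-line cells beside 4.12 and 3.95 RPKM in Hey2-line cells, 12.2-fold higher without doxycycline. The smallest such ratio was 2.07, for Hist1h2bk. Sequences of these genes are nearly alike, so reads may be shared between copies and the values are uncertain.

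Within the Hey1 line 4 histone members were higher and 4 lower after induction, where 39.0% of all genes were higher. Hist1h2bg had 2.20 RPKM in uninduced and 5.64 RPKM in induced cells, from 10 and 26 reads. This was 2.57-fold higher (1.20 to 5.96), the largest increase of any member, from a first value on the floor at the fewest reads that fit. Hist1h2bj went the other way, at 8.87 and 5.95 RPKM, 1.49-fold lower (0.773 to 2.94). Hist2h3c1 had 2.52 and 2.41 RPKM, and Hist1h1e had 1.47 and 1.52 RPKM.

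**Figure D4:**
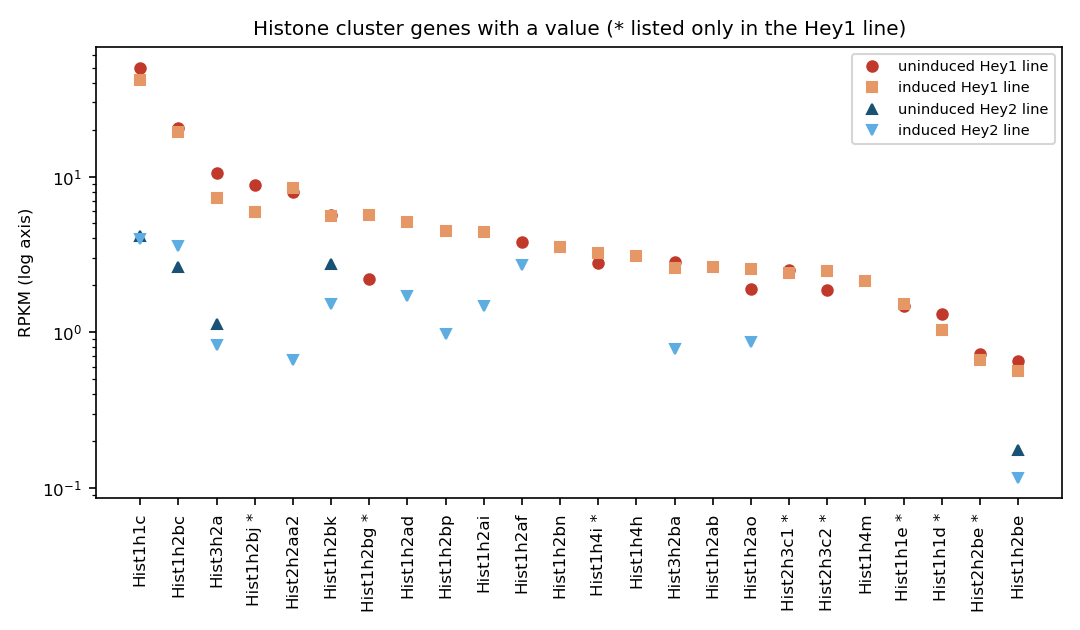
RPKM (log axis) of the 24 histone cluster genes with a value in any library, in each of the 4 libraries; a missing symbol is a blank. Stars mark the 8 members, and in every gene with values from both lines the Hey1-line symbols lie above the Hey2-line ones of the same induction state.

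Several of the highest members overlap another gene, which bears on what their blanks mean. Prn, listed by RefSeq as a separate gene over the prion protein genes, had 28.1 and 26.7 RPKM in Hey1-line cells (1100 and 1059 reads). Against the Hey2-line floor this was at least 171-fold and 293-fold higher. Prnp, which it overlaps, had 39.5 and 37.5 RPKM in the Hey1 line and still 10.3 and 12.8 RPKM in Hey2-line cells, where it was 3.82-fold and 2.92-fold lower. The least difference of Prn was thus far larger than the difference of Prnp, if the blanks of Prn mean reads below the floor. Prnd, which Prn also overlaps, had values only in the Hey2 line, at 0.243 and 0.464 RPKM. Gm44504 had 11.8 and 11.9 RPKM, and the genes it overlaps, Ubl4 and Slc10a3, were listed in all 4 libraries. Ubl4 was 2.43-fold higher in the uninduced Hey1 line, while Gm44504 lay at least 20.4-fold above the floor.

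In other pairs the overlapping gene itself differed strongly between the lines. A930016O22Rik, a non-coding gene, had 7.13 and 5.52 RPKM and overlaps Ckm, the muscle creatine kinase, which had 32.3 and 30.6 RPKM in the Hey1 line and 0.860 and 1.09 RPKM in the Hey2 line. Itgad, an integrin of leukocytes, had 0.545 and 0.471 RPKM and overlaps Cox6a2, a muscle cytochrome oxidase subunit with 362 and 351 RPKM in the Hey1 line and 5.54 and 4.97 RPKM in the Hey2 line. Tpsg1, a mast cell tryptase, had 1.22 and 1.86 RPKM and overlaps the calcium channel gene Cacna1h, at 10.5 and 10.1 RPKM. No member stood in the list of blood and immune cell genes, of which 31 of 42 had no value in any library. In all, 20 of the 79 members overlap a gene with a value and 18 overlap one listed in all 4 libraries. The share of all genes with such an overlap was not computed, so overlap cannot be called particular to the members. How reads in shared stretches were assigned is not stated, and its part in the listing was not tested.

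Lrtm1, a leucine-rich repeat membrane protein gene inside Cacna2d3, was another of these. It had 1.24 and 0.765 RPKM from 67 and 42 reads and was 1.62-fold lower after induction (1.08 to 2.44). Cacna2d3, a calcium channel subunit gene, had 4.83 and 3.90 RPKM in the same libraries. Ogn, a small proteoglycan of the extracellular matrix, lies within Cenpp and had 1.01 and 0.945 RPKM. It was the only member in the list of fibroblast and matrix genes, with 59 in the table.

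Members with other functions included 2 with an interval above 1. Osgin1, a growth inhibitor induced by oxidative stress, had 1.31 and 2.52 RPKM from 19 and 37 reads, 1.92-fold higher (1.08 to 3.54). The gene deposited as 6330512M04Rik, named Ifitm10 in RefSeq, belongs by name to the interferon-induced transmembrane family. It had 0.753 and 1.61 RPKM from 18 and 39 reads, 2.14-fold higher (1.19 to 3.97). Both had under 50 reads in each library, and neither overlaps another gene with a value.

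Chac1, an enzyme that degrades glutathione and is switched on in the unfolded protein response, had 9.39 and 8.58 RPKM from 109 and 101 reads. It lay at least 16.9-fold and 27.9-fold above the Hey2-line floor and was 1.09-fold lower after induction (0.827 to 1.45). Trib3, a gene of the same stress response chosen after its values were seen, had 10.1 and 8.71 RPKM in the Hey1 line and 0.933 and 0.658 RPKM in the Hey2 line. Its relatives Ddit3 and Asns differed less between the uninduced lines, 2.57-fold and 1.42-fold.

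Spink4, a Kazal-type protease inhibitor, had 5.85 and 6.11 RPKM, and Smim27, which overlaps Topors, 4.99 and 5.74 RPKM. Gm1673 had 5.67 and 4.04 RPKM. Stoml3, a stomatin-like protein of sensory neurons, had 4.69 and 4.48 RPKM, and Sunc1, a testis member of the SUN nuclear envelope family, 3.93 and 2.66 RPKM. Galr2, a galanin receptor, had 0.975 and 1.58 RPKM, and Trim65, a ubiquitin ligase, 0.487 and 0.831 RPKM. The protocadherin genes Pcdhb18 and Pcdhb22, cell adhesion proteins of neurons, had 0.510 and 0.741 and 0.749 and 1.22 RPKM. Each of these ratios had an interval that held 1, and the neuronal list held 0 members.

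The remaining members of this class all had an interval that held 1. 1110012N22Rik (Myadml2 in RefSeq) had 2.93 and 2.54 RPKM, Yipf7 2.44 and 2.63 RPKM, and LOC620695 (Gm13889) 2.09 and 2.38 RPKM. Rilp, a Rab7 effector that moves lysosomes, had 1.91 and 1.97 RPKM, and Palmd, a palmdelphin gene, 1.52 and 1.89 RPKM. 6030419C18Rik (Insyn1), 3300001A09Rik (C2cd4b), Cdc42ep2, an effector of the small GTPase Cdc42, and A530016L24Rik lay between 0.809 and 1.58 RPKM. Adam1a, a sperm metalloprotease, Baalc and Arpp21, a phosphoprotein regulated by cyclic AMP, were the lowest of these. Arpp21 had 0.256 and 0.169 RPKM, the latter the lowest value of any member in induced cells.

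None of the 10 long non-coding RNAs had an interval off 1 with induction, beside 4.66% of all genes above 1 and 12.7% below. Their ratios ran from 0.762 to 1.09, 5 higher and 5 lower, where 39.0% of all genes were higher. Peg13, an imprinted transcript inside the Trappc9 gene, had 1.06 and 1.07 RPKM from 37 and 38 reads. Gm38426 had 5.53 and 4.77 RPKM, 1810021B22Rik 4.55 and 3.47 RPKM, and 1810044D09Rik 3.06 and 2.74 RPKM. The remaining ones were 0610009L18Rik, EG329763 (Gm5105 in RefSeq), 2810029C07Rik and 1300015D01Rik (Ctcflos), from 2.80 RPKM in induced cells for 0610009L18Rik down to 0.575 RPKM for 1300015D01Rik. OTTMUSG00000016300, named Gata5os in RefSeq, had 0.805 and 0.874 RPKM and overlaps Gata5, also a member. Without strand information, reads of Gata5 and of this partner cannot be told apart.

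**Figure D5:**
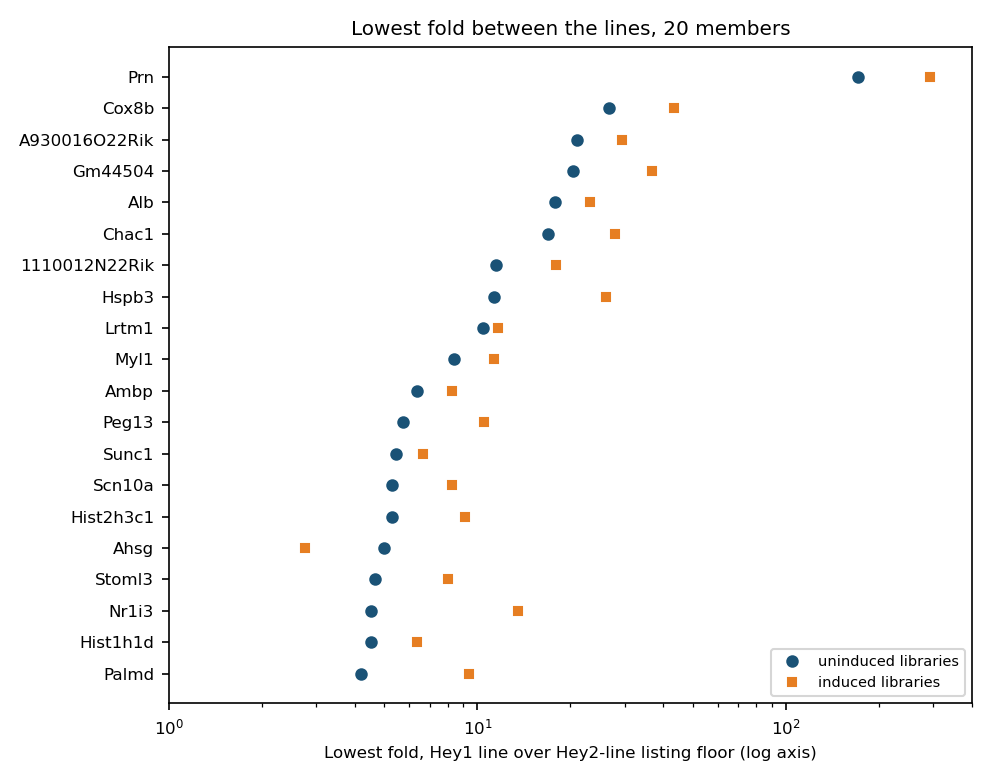
Lowest fold by which 20 members in the Hey1 line exceed the listing floor of the Hey2 line (x axis, log), for uninduced and induced libraries. Prn leads with 171-fold and 293-fold, followed by Cox8b with 26.7-fold and 43.4-fold. These folds come from the values and blanks that chose the members. They hold between the lines only where a blank means reads below the floor.

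Over the whole set, the difference between the lines could often not be shown to be large. The least fold against the Hey2-line floor had a median of 2.80 in uninduced and 4.98 in induced cells. It reached 10 for 9 and 14 members, respectively, and 20 for 4 and 7. The 4 were Prn, Cox8b, A930016O22Rik and Gm44504, and 3 of these overlap another listed gene. How often genes overlap over the whole table was not computed.

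After Hey1 induction 42 members were higher and 37 lower, with a median log2 ratio of 0.05 (quartiles −0.23 and 0.26). All genes with recovered reads in both Hey1-line libraries had a median of −0.07 (quartiles −0.27 and 0.10), and 39.0% of them were higher. For the 29 members that had 20 reads or more in both states the median was −0.07, of opposite sign, and it was −0.07 for all such genes. Rescaling moved all ratios by 0.07 or 0.06 on the log2 scale and gave 47 higher and 32 lower, or 45 and 34.

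A ratio of at least 2 was seen for 2 members (2.53%), Hist1h2bg and 6330512M04Rik, beside 0.26% of the 11917 genes listed in both Hey1-line libraries. A level lower by at least 2-fold was seen for 1 member (1.27%), Ahsg, beside 0.923%. Ratios of genes with few reads scatter more. Among genes with at most 50 reads in each library, a background chosen after seeing the data, the shares were 0.754% higher and 2.36% lower, beside 2 and 1 of 69 members. Counts of 2 and 1 are too few to set the members apart from the background in either direction.

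A counting interval above 1 was found for 4 members (5.06%), beside 4.66% of genes, and below 1 for 3 members (3.80%), beside 12.7%. The 4 were Hist1h2bg, 6330512M04Rik, Osgin1 and Nr1i3, and the 3 were Ahsg, Lrtm1 and Alb. The members had fewer reads than the background, and fewer reads give wider intervals. For the other 72 members the ratio lay between 0.583 and 1.70 with an interval that held 1. In all, 64 of 79 members differed by less than 1.5-fold between uninduced and induced Hey1-line cells.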

How the data were processed

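RNA-seq values of 4 cardiomyocyte libraries were analysed, 1 per group; 8 chromatin immunoprecipitation samples were not analysed here. The authors deposited RPKM per gene and, for either line, a score that is a signed fold of these RPKM, per the file headers. The submitters' processing notes name mm9, Bowtie 1.0, DESeq and MACS 1.4.1 without roles. For the annotation, counter, strand and treatment of multiply matching reads no source used here gives a statement.

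Each depth was the smallest on a grid of 25000 reads at which genes whose RefSeq span equals their gene model gave whole reads (234 to 326 genes per library). Whole reads were recovered for 15363 of 15371 listed genes (99.9%), within 3e-06 reads plus rounding of the file's digits. With 1 depth off by 1%, 10.5% did. Reads are the fewest that the values and the floor allow, so intervals are the widest; for 5 members the length equalled the RefSeq span. Among genes with a known span, 2 in uninduced and 3 in induced Hey2-line cells lay below the floor, and 0 in Hey1-line cells. Listed genes held 3151196 (uninduced) and 3142314 (induced) reads in Hey1-line cells, and 2296193 and 4182233 in Hey2-line cells.

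Ratios are plain RPKM ratios with exact 95% conditional binomial intervals, and single values have exact Poisson intervals; the code was tested on simulated data. A least fold divides a Hey1-line value by the RPKM of the Hey2-line floor, without counting error. It holds between the lines only where a blank means reads below the floor. Copies made in PCR are not independent, so intervals cover counting error only. With 1 library per group no test was made. Genes were named from the table, and 6 members without a symbol from RefSeq (GRCm38.p6), which matched 23334 identifiers and served for names and overlaps. Members with the 12 highest means, intervals off 1, places in a fixed list or near the floor were named by a fixed rule; other members and related genes were named after their values were seen. With no separate cultures named, nothing measures the spread between cultures. The members and lists were chosen with earlier results of these data known. Python 3.11.15, NumPy 2.4.6, pandas 2.3.3, SciPy 1.17.1 and Matplotlib 3.10.9 were used.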

Additional observations from a re-analysis of the deposited data

How the results depend on the processing

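Of the 79 members, 29 had at least 20 reads in each Hey1-line library. Among those 29, 0 were 2-fold higher and 0 lower, 1 interval lay above 1, and the median log2 ratio was −0.074 in place of 0.048; fewer genes enter this setting. On the log2(RPKM + 1) scale, which shrinks low values, 1 member was 2-fold higher and 0 lower. At a size of 1.5-fold 10 of the 79 members were higher, beside 1.86% of all genes, and 5 lower, beside 6.81%. Ratios of genes with few reads scatter more, and no background of such genes was computed at this size. Without histone genes, a choice made after seeing the data, 1 was 2-fold higher. Keeping the names left out, a pseudocount of 0.1, both scalings and leaving out overlapping genes (also chosen after seeing the data) moved no count by more than 1.5 times, and of the 7 single genes with an interval off 1 only Alb lost it under the scalings. With 1 library per group no replicate could be left out, and no paired analysis was possible because no group has a second library. Depth limits the ratios, since members had a median of 18 reads in each Hey1-line library.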
